A study of Homo sapiens with 12 samples.

Results

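The 50 genes described here encode the machinery that copies DNA in S phase: the proteins that license origins, the MCM helicase ring and its activators, the polymerases, the sliding clamp and its loader, the enzymes that join Okazaki fragments, the suppliers of nucleotides, and the regulators that start S phase. They were chosen by name for these roles, with earlier results of these data known, out of 28278 genes in the deposited table. All 50 were found, and 46 had enough counts to be tested. The 4 others were CDC6, RPA1, CHAF1B and CCNE2. The cells were OCI-Ly7, an established line of diffuse large B cell lymphoma derived from a pleural effusion, and all lines were untreated. The double mutant line carried kmt2d-/- together with EZH2 Y646N and had 3 libraries. The EZH2 mutant line carried EZH2 Y646N, a gain-of-function change of this histone H3 methyltransferase, and had 2 libraries. The KMT2D mutant line was kmt2d-/-, without this histone H3 methyltransferase, and had 3 libraries. The unedited wild type line had 3 libraries. The mutants were made by CRISPR editing of OCI-Ly7. No label says how many clones each line represents, so a difference between lines cannot be told apart from one between clones. RNA was measured by MARS-seq, which tags the 3′ ends of transcripts and counts them per gene.

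Before S phase, the origin recognition complex, CDC6 and CDT1 load a pair of MCM rings on each origin, and geminin (GMNN) prevents a further loading in the same cycle. CDC45, the GINS complex and MCM10 then turn each ring into an active helicase. Polymerases, clamp and ligase follow it, and ribonucleotide reductase feeds them. Many of these genes are transcribed at the passage from G1 to S by E2F proteins, which RB holds back until cyclin and kinase pairs release them. Diffuse large B cell lymphoma is an aggressive tumour whose cells divide fast, which keeps many of them in S phase.

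Many of these genes share letters in their promoters. Promoters of 43 of the 50 genes, from 250 bases before to 50 after the annotated start, were taken from RefSeq on GRCh38.p14. The E2F-like motif TTTNNCGC, searched on both strands, was in 23 of the 43 (53.5%), beside 11.7% of the promoters of all tested genes and 12.5% of 24 promoters of G2 and mitosis genes. The CCAAT box was in 55.8% of the replication promoters and 38.4% of all tested ones. TTTGAA, the core of the element that silences mitotic genes in early cycle, was in 2.33% of the replication promoters and 75% of the G2 and mitosis promoters. A match is a description of letters and not a bound site. The members with the 4 smallest adjusted p in each of the 6 comparisons below were 11 genes, and all 9 of them with a promoter in the table are printed, so that the leading genes can be read with and without the motifs. They run 5′ to 3′ on the gene's strand, with matches to the 3 motifs in capitals on whichever strand they lie. CDK1, a mitotic gene, is added for contrast on TTTGAA, and its window also holds 1 E2F-like match and 1 CCAAT box.
CDT1: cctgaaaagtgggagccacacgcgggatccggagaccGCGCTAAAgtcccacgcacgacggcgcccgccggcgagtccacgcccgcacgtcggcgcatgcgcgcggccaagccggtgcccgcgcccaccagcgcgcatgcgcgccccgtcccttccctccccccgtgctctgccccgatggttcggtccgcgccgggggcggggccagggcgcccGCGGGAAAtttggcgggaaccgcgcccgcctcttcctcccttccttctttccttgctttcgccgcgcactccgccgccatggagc
GMNN: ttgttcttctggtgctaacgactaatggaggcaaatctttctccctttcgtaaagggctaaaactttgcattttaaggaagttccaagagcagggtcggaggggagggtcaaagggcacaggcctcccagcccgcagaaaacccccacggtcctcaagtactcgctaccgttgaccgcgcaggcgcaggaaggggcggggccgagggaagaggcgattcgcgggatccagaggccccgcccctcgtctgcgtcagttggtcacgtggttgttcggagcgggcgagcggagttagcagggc
CDC45: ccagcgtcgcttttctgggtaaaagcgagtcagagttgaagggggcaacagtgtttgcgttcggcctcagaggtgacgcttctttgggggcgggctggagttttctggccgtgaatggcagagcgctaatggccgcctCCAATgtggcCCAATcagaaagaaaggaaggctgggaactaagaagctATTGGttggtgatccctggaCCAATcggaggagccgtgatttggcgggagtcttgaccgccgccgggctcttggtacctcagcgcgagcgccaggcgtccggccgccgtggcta
POLE: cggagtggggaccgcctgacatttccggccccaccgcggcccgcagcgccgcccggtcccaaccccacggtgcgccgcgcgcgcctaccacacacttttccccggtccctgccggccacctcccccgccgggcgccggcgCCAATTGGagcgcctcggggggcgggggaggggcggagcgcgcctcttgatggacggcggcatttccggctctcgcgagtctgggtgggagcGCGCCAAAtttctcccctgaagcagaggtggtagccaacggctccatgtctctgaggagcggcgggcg
PCNA: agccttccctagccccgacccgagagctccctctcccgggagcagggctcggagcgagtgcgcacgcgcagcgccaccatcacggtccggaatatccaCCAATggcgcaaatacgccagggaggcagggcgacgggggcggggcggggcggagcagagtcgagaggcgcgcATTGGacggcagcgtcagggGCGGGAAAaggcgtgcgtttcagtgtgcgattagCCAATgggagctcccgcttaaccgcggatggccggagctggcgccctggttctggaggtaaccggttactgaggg
FEN1: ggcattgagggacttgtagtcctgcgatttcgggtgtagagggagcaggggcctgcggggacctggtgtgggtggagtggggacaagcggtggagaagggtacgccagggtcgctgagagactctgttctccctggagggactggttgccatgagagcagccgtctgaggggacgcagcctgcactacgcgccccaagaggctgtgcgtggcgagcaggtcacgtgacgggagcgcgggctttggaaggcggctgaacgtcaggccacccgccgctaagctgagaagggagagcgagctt
LIG1: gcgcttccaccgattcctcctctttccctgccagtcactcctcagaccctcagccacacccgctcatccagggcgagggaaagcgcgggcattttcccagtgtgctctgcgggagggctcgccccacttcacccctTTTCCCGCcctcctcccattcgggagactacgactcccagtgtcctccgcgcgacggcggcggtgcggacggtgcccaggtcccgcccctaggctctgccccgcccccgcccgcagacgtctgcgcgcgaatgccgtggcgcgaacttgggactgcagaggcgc
RRM2: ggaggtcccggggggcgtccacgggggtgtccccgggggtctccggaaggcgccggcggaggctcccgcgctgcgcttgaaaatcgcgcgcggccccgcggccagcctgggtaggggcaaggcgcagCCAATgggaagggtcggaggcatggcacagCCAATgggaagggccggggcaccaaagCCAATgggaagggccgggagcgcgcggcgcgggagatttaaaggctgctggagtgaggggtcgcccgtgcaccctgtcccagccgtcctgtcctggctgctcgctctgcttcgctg
TIPIN: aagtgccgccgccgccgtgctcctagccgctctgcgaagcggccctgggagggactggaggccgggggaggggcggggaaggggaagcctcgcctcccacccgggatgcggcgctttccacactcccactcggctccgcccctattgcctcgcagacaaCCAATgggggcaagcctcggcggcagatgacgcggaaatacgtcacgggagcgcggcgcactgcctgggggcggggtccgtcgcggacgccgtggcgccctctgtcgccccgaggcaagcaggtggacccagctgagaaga
CDK1: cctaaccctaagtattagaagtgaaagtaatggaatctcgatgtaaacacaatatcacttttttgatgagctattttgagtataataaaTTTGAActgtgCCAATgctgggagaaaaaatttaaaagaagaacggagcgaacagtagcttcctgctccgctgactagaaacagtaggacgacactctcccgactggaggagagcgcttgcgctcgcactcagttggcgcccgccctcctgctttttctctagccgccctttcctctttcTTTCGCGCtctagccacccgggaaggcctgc
The windows are chr16:88803539-88803838 for CDT1, chr6:24774687-24774986 for GMNN, chr22:19479670-19479969 for CDC45 and chr12:132687293-132687592 for POLE. Those of PCNA, FEN1 and LIG1 are chr20:5126573-5126872, chr11:61792661-61792960 and chr19:48170295-48170594, and those of RRM2, TIPIN and CDK1 are chr2:10122489-10122788, chr15:66386668-66386967 and chr10:60778081-60778380. Among the leading members CDT1, LIG1, PCNA and POLE hold the E2F-like motif, CDT1 with 2 matches. CDC45 and RRM2 hold none in this window and have 4 and 3 CCAAT boxes. TIPIN has 1 CCAAT box, FEN1 and GMNN hold none of the 3 motifs, and in POLE the CCAAT matches on opposite strands overlap. Of the 15 members that were higher in the double mutant than in the KMT2D mutant, 13 had a promoter in the table. The E2F-like motif was in 7 of these 13, a share near the 23 of 43 for all member promoters. It was in 1 of the 3 members that were lower in that comparison.

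Library totals ran from 1118710 to 3107871 counts, and the shallowest was replicate 1 of the EZH2 mutant. That library stood apart for several members, and counts of calls that change without it are given both ways. The levels below are CPM, counts relative to the library total after TMM scaling, and are called normalised CPM. All 8 B cell markers were detected, with a summed level of 7817 to 8075 normalised CPM in the double mutant, 8959 to 12150.0 in the EZH2 mutant, 5700.0 to 6793 in the KMT2D mutant and 6393 to 9066 in wild type. The 8 myeloid markers summed to 3.49 to 4.93 normalised CPM in the double mutant, 10.4 to 12.3 in the EZH2 mutant, 9.4 to 15.3 in the KMT2D mutant and 18.1 to 31.6 in wild type, with 4 of them at 0 in every library. The 11 T and NK cell markers summed to 188 to 296 normalised CPM over all libraries, with 4 at 0 throughout. Most of that sum was LCK, a Src-family kinase, at 182, 212 and 198 in the double mutant, 221 and 210.5 in the EZH2 mutant, 218, 261 and 211 in the KMT2D mutant and 268, 203 and 249.6 in wild type. CD3D, CD2, CD7 and GZMB were at 0 in every library, and CD3E, CD3G, NKG7 and KLRD1 read at most 0.766. IL7R averaged 3.475 in the double mutant, 2.23 in the EZH2 mutant, 22.6 in the KMT2D mutant and 11.5 in wild type. PRF1 averaged 0.416, 2.265, 7.685 and 2.57 in the same order. Both were called lower in the double mutant than in the KMT2D mutant or wild type. Against wild type, IL7R was also called lower in the EZH2 mutant and PRF1 higher in the KMT2D mutant. The 7 fibroblast and epithelial markers summed to at most 6.04. The part of these markers in the results was not tested. KMT2D itself read 41.1, 41 and 34.5 normalised CPM in the KMT2D mutant, against 27.2, 44.2 and 29.1 in wild type. A 3′ tag cannot show an edit elsewhere in the gene, so this level does not check the knockout, nor can the level of EZH2 check a point mutation.

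The most visible feature of the 50 genes was a lower level in the KMT2D mutant. Their normalised CPM summed to 7713, 7868 and 7538 in the double mutant libraries, 8435 and 7607 in the EZH2 mutant libraries, 6361, 6388 and 6042 in the KMT2D mutant libraries and 8248, 7462 and 7741 in the wild type libraries. All 3 KMT2D mutant libraries lay below every other library, and the other 3 lines overlapped. In bulk RNA, fewer cells in S phase and less RNA per cell cannot be told apart. MCM2 to MCM7 alone summed to 2702, 2847 and 2442 in the double mutant, 3192 and 2858 in the EZH2 mutant, 1883, 1914 and 1728 in the KMT2D mutant and 2629, 2339 and 2367 in wild type. Here too the KMT2D mutant libraries were lowest, and the EZH2 mutant libraries lay above all 3 of wild type. Not every function followed: the clamp and its loader summed to 820.2, 755 and 832 in the double mutant, 691 and 809.7 in the EZH2 mutant, 959, 847 and 911 in the KMT2D mutant and 912, 903 and 1065 in wild type. On that sum the KMT2D mutant overlapped wild type, while the 2 lines with the EZH2 change lay below it.

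**Figure D1:**
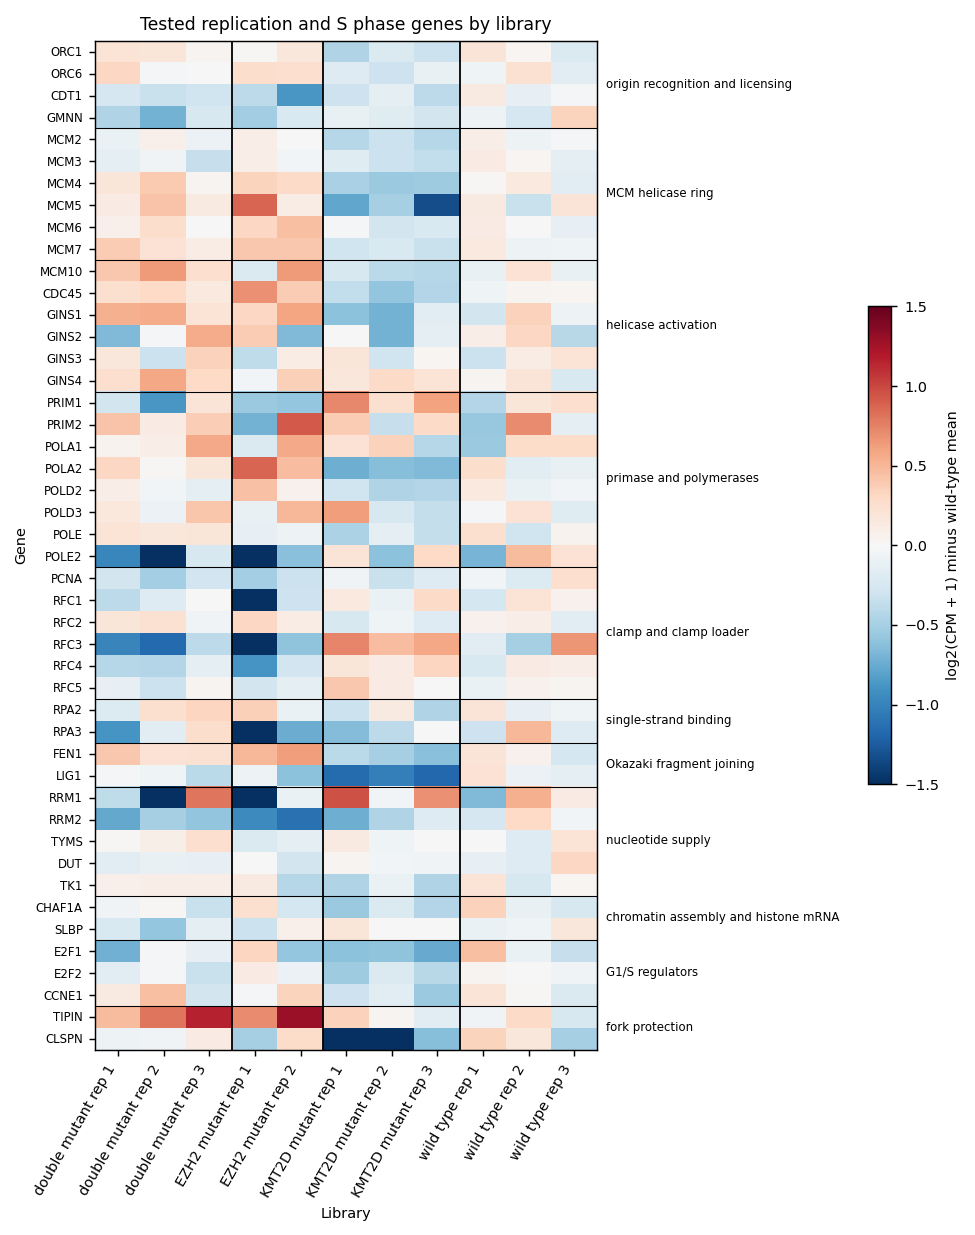
Levels of the 46 tested genes in 11 libraries, as log2(normalised CPM + 1) minus the wild type mean, with rows ordered by function and colours ending at -1.5 and 1.5. The 3 KMT2D mutant columns are blue for nearly all of the MCM ring and for CDC45, FEN1 and LIG1. RFC3 and RFC4 are blue in the double mutant and EZH2 mutant columns, and RRM2 is blue in the columns of all 3 mutant lines.

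In the KMT2D mutant against wild type, 6 of the 46 tested genes fell and none rose. A gene was called at 0.05 in edgeR's quasi-likelihood test, after Benjamini-Hochberg adjustment over all 8813 tested genes. Over all tested genes 4.48% fell and 3.18% rose. No member reached an unadjusted p of 0.05 on the higher side, and DESeq2 and limma-voom called none higher either, whereas 20 members reached it on the lower side. The sign of the fold change was negative for 34 of 46 members, and their median was -0.27, beside 0.00 for all genes tested. Under the other scalings, filters and tools the members' median lay between -0.29 and -0.21. The 6 that fell were MCM2, MCM4 and MCM5 of the helicase ring, the helicase activator CDC45, the flap endonuclease FEN1 and the ligase LIG1.

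MCM4 (ENSG00000104738.17, plus strand, chr8:47960185-47978160, all places being from GENCODE 29 on GRCh38) is an ATPase subunit of the ring. It read 264, 252 and 257 normalised CPM in the KMT2D mutant, against 375, 411 and 333 in wild type (log2 fold change -0.53, SE 0.12, adjusted p = 0.00872). All 3 KMT2D mutant libraries lay below the lowest of wild type. MCM5 (ENSG00000100297.15, plus strand, chr22:35400063-35425430), which with MCM2 forms the gate of the ring, read 218, 264 and 148 in the KMT2D mutant, against 411, 297 and 429.7 in wild type (log2 fold change -0.86, SE 0.23, adjusted p = 0.0404). The groups did not overlap, but the wild type libraries were spread widely. MCM2 (ENSG00000073111.13, plus strand, chr3:127598223-127622436), which also carries histones at the fork, read 294, 316 and 293 in the KMT2D mutant, against 423, 373 and 388 in wild type (log2 fold change -0.39, SE 0.11, adjusted p = 0.0375). The fall of MCM2 was the smallest of the 6, with no overlap of the groups. MCM7, a further ring subunit, had 629, 659.9 and 610 in the KMT2D mutant, against 852, 729.7 and 740.3 in wild type (log2 fold change -0.29, SE 0.12, adjusted p = 0.154), below wild type in every library but without a call. MCM3 and MCM6 had the same sign without passing the test, with a log2 fold change of -0.29 for MCM3 (SE 0.12) and -0.17 for MCM6 (SE 0.13).

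CDC45 (ENSG00000093009.9, plus strand, chr22:19479459-19520612), which bolts onto the ring to make the running helicase, read 87.7, 75.2 and 83.1 normalised CPM in the KMT2D mutant, against 108, 116 and 116 in wild type (log2 fold change -0.46, SE 0.13, adjusted p = 0.0351). FEN1 (ENSG00000168496.3, plus strand, chr11:61792637-61797244), which trims the flap between Okazaki fragments, read 164, 153 and 140.2 in the KMT2D mutant, against 248, 227 and 181 in wild type (log2 fold change -0.52, SE 0.13, adjusted p = 0.0189). LIG1 (ENSG00000105486.13, minus strand, chr19:48115445-48170603), which seals the nick that FEN1 leaves, read 94.4, 103 and 93.4 in the KMT2D mutant, against 247, 199 and 194 in wild type (log2 fold change -1.13, SE 0.16, adjusted p = 0.000137). For these 3 genes too, every KMT2D mutant library was below every wild type library, and LIG1 fell furthest of the 6. The calls of LIG1 and MCM4 held under every alternative processing that gave a value. The number of members that fell was 3 without replicate 1 of the KMT2D mutant, without its replicate 3 or without wild type replicate 1, and 10 without replicate 1 of the EZH2 mutant, which shares the estimate of spread. The calls of MCM2 and MCM5 were also lost without wild type replicate 3, that of MCM5 without replicate 1 or 3 of the double mutant, that of FEN1 without wild type replicate 2, and that of CDC45 without any 1 library of the 2 lines.

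Several members without a call were also lower in all 3 KMT2D mutant libraries than in any of wild type. POLA2, the regulatory subunit of the polymerase that makes primers, read 13.1, 14.1 and 13.8 normalised CPM in the KMT2D mutant, against 27.2, 20.1 and 20.7 in wild type (log2 fold change -0.71, SE 0.22, adjusted p = 0.05, just over the threshold before rounding). POLD2, a subunit of the lagging-strand polymerase, read 362, 326 and 329 in the KMT2D mutant, against 493, 416 and 433 in wild type (log2 fold change -0.40, SE 0.13, adjusted p = 0.0614). E2F2, an activator of S phase transcription, read 210.2, 262 and 228 in the KMT2D mutant, against 315, 306 and 295 in wild type (log2 fold change -0.39, SE 0.13, adjusted p = 0.0644). In each of these every KMT2D mutant library was below wild type. The related E2F1 read 225, 227 and 204 in the KMT2D mutant, against 471, 321 and 272 in wild type (log2 fold change -0.69, SE 0.26, adjusted p = 0.145), with wild type spread widely. CLSPN, the claspin of the replication checkpoint, read 0.914, 0.671 and 2.68 in the KMT2D mutant, against 6.22, 5.44 and 3.07 in wild type (log2 fold change -1.66, SE 0.52, adjusted p = 0.0601). All 5 missed the threshold with groups that did not overlap, as did MCM7 above and ORC1, MCM3, CDT1 and MCM10. The share of all tested genes that separate in this way was not counted, so the lack of overlap is a description only. The clamp PCNA, the pyrimidine enzymes TYMS and DUT, and SLBP, which binds histone mRNA, had log2 fold changes of -0.20, 0.01, -0.04 and 0.06, with SEs of 0.13, 0.13, 0.14 and 0.14.

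**Figure D2:**
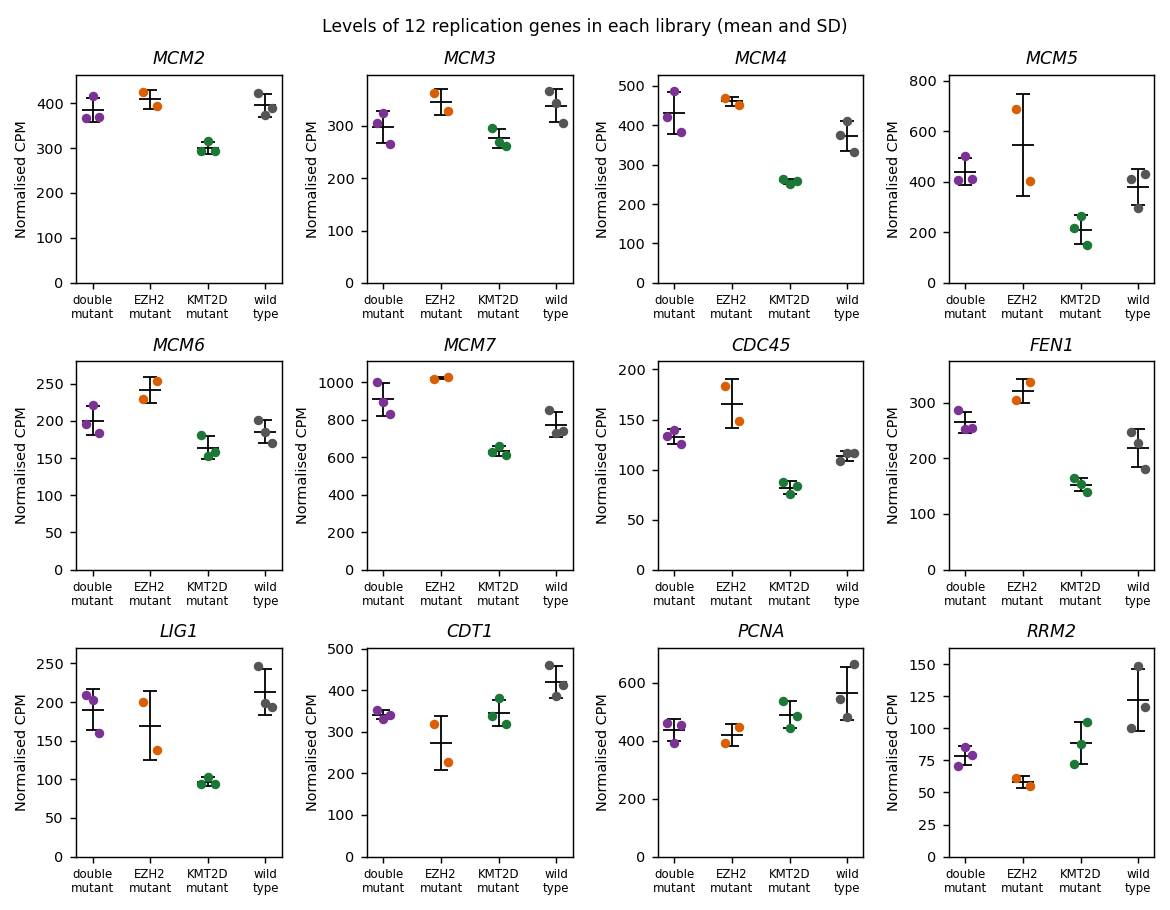
Normalised CPM of 12 replication genes in each library, with the mean and SD of each line (n = 3, 2, 3 and 3). MCM4, CDC45, FEN1 and LIG1 are lowest in the KMT2D mutant, and RRM2 is lowest in the EZH2 mutant.

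The EZH2 mutant against wild type split the set: 6 members rose and 5 fell. Over all tested genes 17.1% rose and 15.1% fell, so the members' shares, 13.04% and 10.87%, were near the background. Those that rose were MCM6, MCM7, CDC45, POLA2, FEN1 and TIPIN, and those that fell were CDT1, PCNA, RFC4, RPA3 and RRM2. The median fold change of the members was 0.02 on the log2 scale, beside -0.04 for all genes. With upper-quartile factors, which moved the median of all genes to -0.20 and that of the members to -0.15, the split was 2 higher and 8 lower, with MCM6, MCM7, POLA2 and CDC45 no longer called.

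RRM2 (ENSG00000171848.14, plus strand, chr2:10120698-10131419), the small subunit of ribonucleotide reductase whose supply limits S phase, had the smallest adjusted p. It read 61.5 and 55.1 normalised CPM in the EZH2 mutant, against 101, 149 and 117 in wild type (log2 fold change -1.08, SE 0.20, adjusted p = 0.000581), and the call held under every alternative. Both EZH2 mutant libraries were below all of wild type. In the KMT2D mutant RRM2 read 72.2, 87.9 and 105, each below the wild type mean of 122, with an overlap of the lines and without a call. CDT1 (ENSG00000167513.8, plus strand, chr16:88803213-88809258), the loader that is destroyed once S phase starts, read 319.6 and 228 in the EZH2 mutant, against 460, 386 and 413 in wild type (log2 fold change -0.63, SE 0.15, adjusted p = 0.00408). Its call was lost without replicate 2 of the EZH2 mutant, the lower of the pair. PCNA (ENSG00000132646.10, minus strand, chr20:5114953-5126626), the ring that tethers polymerases to DNA, read 391 and 447 in the EZH2 mutant, against 542, 482 and 664 in wild type (log2 fold change -0.42, SE 0.15, adjusted p = 0.039). RFC4, a subunit of the complex that opens that ring, read 45.1 and 69 in the EZH2 mutant, against 71.9, 91.8 and 90.1 in wild type (log2 fold change -0.53, SE 0.19, adjusted p = 0.0416). RPA3, the small subunit of the protein that coats single strands, read 26.6 and 46.2 in the EZH2 mutant, against 62.8, 111 and 68.2 in wild type (log2 fold change -1.09, SE 0.38, adjusted p = 0.0468). For these 3 the groups did not overlap, but RPA3 varied widely in wild type. Each of these 3 calls was lost without replicate 1 of the EZH2 mutant or without wild type replicate 3, those of RFC4 and RPA3 also without wild type replicate 2, and that of RPA3 without replicate 2 of the double, EZH2 or KMT2D mutant.

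On the higher side, CDC45 read 183 and 148 normalised CPM in the EZH2 mutant, against 108, 116 and 116 in wild type (log2 fold change 0.53, SE 0.15, adjusted p = 0.00901). FEN1 read 305 and 336 in the EZH2 mutant, against 248, 227 and 181 in wild type (log2 fold change 0.56, SE 0.15, adjusted p = 0.00667). Both genes thus lay above wild type in the EZH2 mutant and below it in the KMT2D mutant, with no overlap in either comparison. TIPIN, part of the complex that steadies stalled forks, is a weakly read gene that had 11.3 and 17.4 in the EZH2 mutant, against 6.22, 8.16 and 5.37 in wild type (log2 fold change 1.16, SE 0.36, adjusted p = 0.0178). The EZH2 mutant libraries were again both above wild type. MCM7 read 1019 and 1026 in the EZH2 mutant, against 852, 729.7 and 740.3 in wild type (log2 fold change 0.40, SE 0.13, adjusted p = 0.0238). MCM6 read 229 and 254 in the EZH2 mutant, against 201, 185 and 171 in wild type (log2 fold change 0.39, SE 0.14, adjusted p = 0.042), and its call held under 4 of 21 alternatives. POLA2 read 42 and 31.3 in the EZH2 mutant, against 27.2, 20.1 and 20.7 in wild type (log2 fold change 0.68, SE 0.23, adjusted p = 0.0313).

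The call of CDC45 was lost without replicate 1 of the EZH2 mutant, that of FEN1 without its replicate 2, and that of TIPIN without its replicate 2 or wild type replicate 3. The calls of MCM7, MCM6 and POLA2 were lost without any 1 of EZH2 mutant replicate 1, KMT2D mutant replicates 1 and 3 and wild type replicates 2 and 3. For MCM7 and MCM6 the same held of EZH2 mutant replicate 2, and for MCM6 of double mutant replicates 1 and 3 and KMT2D mutant replicate 2. In all, 2 members rose and 3 fell without replicate 1 of the EZH2 mutant, 2 rose and 2 fell without wild type replicate 3, and 3 rose without EZH2 mutant replicate 2, KMT2D mutant replicate 1 or 3, or wild type replicate 2. The shallow replicate 1 of the EZH2 mutant stood apart from replicate 2 for several members, as for MCM5, which read 688 and 404 in the EZH2 mutant. RFC1, the large clamp loader subunit, read 14.3 and 62 in the EZH2 mutant, against 63.9, 89.4 and 80.5 in wild type. RRM1, the large subunit of the reductase, read 3.07 and 21.4 in the EZH2 mutant, against 14.1, 33.7 and 24.9 in wild type. Neither passed the test (adjusted p = 0.0735 and 0.476 in edgeR's quasi-likelihood test).

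The double mutant against wild type had the fewest calls of the 3 lines: 2 members fell and none rose. Over all tested genes 11.6% fell and 12.1% rose, against 4.348% and 0 of the members. Without adjustment 6 members fell and 2 rose at a p under 0.05, and DESeq2 and limma-voom called none higher. The signs were even, 23 on each side, with a median of 0.03 on the log2 scale. RRM2 read 70.6, 85.3 and 79.6 normalised CPM in the double mutant, against 101, 149 and 117 in wild type (log2 fold change -0.65, SE 0.17, adjusted p = 0.00912), with no overlap. GMNN, the geminin that blocks relicensing, read 91.8, 76.3 and 106 in the double mutant, against 119, 105 and 158 in wild type (log2 fold change -0.48, SE 0.16, adjusted p = 0.0414), and here the highest double mutant library just exceeded the lowest of wild type. The call of RRM2 was lost without wild type replicate 2, the highest of its line, and that of GMNN without double mutant replicate 1 or 2, KMT2D mutant replicate 1 or 3 or wild type replicate 3, and in each of these last cases 1 member fell. Without either 1 of the EZH2 mutant libraries 4 members fell and 1 rose, and 1 rose without double mutant replicate 1. With the trends on GC content and abundance removed, 9 fell and 2 rose. PCNA read 462, 391 and 455 in the double mutant, against 542, 482 and 664 in wild type (log2 fold change -0.37, SE 0.13, adjusted p = 0.0529), and TIPIN read 9.38, 12.1 and 15.7 in the double mutant, against 6.22, 8.16 and 5.37 in wild type (log2 fold change 0.88, SE 0.32, adjusted p = 0.0537). Neither passed the test, although the lines did not overlap, and PCNA passed it under 11 of 21 alternatives. MCM4 read 421, 487 and 382 in the double mutant, against 375, 411 and 333 in wild type (log2 fold change 0.20, SE 0.12, adjusted p = 0.239), and LIG1 read 209, 202 and 159.8 in the double mutant, against 247, 199 and 194 in wild type (log2 fold change -0.16, SE 0.15, adjusted p = 0.482). For both genes the lines overlapped.

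Set against the KMT2D mutant, the double mutant had the most calls: 15 members were higher and 3 lower. Over all tested genes 21.2% were higher and 20.8% lower, and among the members 32.61% and 6.522%. The fold change was positive for 33 of 46 members and its median 0.26, beside -0.02 for all genes. The higher ones covered most functions: ORC1 at the origin, MCM2, MCM4, MCM5 and MCM7 in the ring, CDC45, GINS1 and MCM10 in its activation, POLA2, POLD2 and POLE among the polymerases, FEN1 and LIG1 at Okazaki fragments, the thymidine kinase TK1 and CLSPN. With upper-quartile factors, which moved the median of all genes to -0.16, the split was 11 higher and 5 lower.

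FEN1 read 286, 252 and 254 normalised CPM in the double mutant, against 164, 153 and 140.2 in the KMT2D mutant (log2 fold change 0.79, SE 0.13, adjusted p = 0.000112). MCM4 read 421, 487 and 382 in the double mutant, against 264, 252 and 257 in the KMT2D mutant (log2 fold change 0.74, SE 0.12, adjusted p = 0.000107). LIG1 read 209, 202 and 159.8 in the double mutant, against 94.4, 103 and 93.4 in the KMT2D mutant (log2 fold change 0.97, SE 0.16, adjusted p = 7.64e-05). The lines were fully separate for all 3 genes. MCM5 read 407, 502 and 410.3 in the double mutant, against 218, 264 and 148 in the KMT2D mutant (log2 fold change 1.07, SE 0.23, adjusted p = 0.00281). CDC45 read 134, 139.7 and 126 in the double mutant, against 87.7, 75.2 and 83.1 in the KMT2D mutant (log2 fold change 0.69, SE 0.13, adjusted p = 0.000447). GINS1, a subunit of the tetramer that joins CDC45, read 49.4, 49.9 and 38.9 in the double mutant, against 21.6, 20.1 and 29.9 in the KMT2D mutant (log2 fold change 0.93, SE 0.21, adjusted p = 0.00166). These calls, and those of MCM7, MCM10 and POLA2, held under every alternative that gave a value.

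POLE, the catalytic subunit of the leading-strand polymerase, read 157, 154 and 155 normalised CPM in the double mutant, against 98.1, 125 and 106 in the KMT2D mutant (log2 fold change 0.51, SE 0.15, adjusted p = 0.00869). The double mutant libraries were nearly equal and all higher. CLSPN read 4.44, 4.53 and 5.23 in the double mutant, against 0.914, 0.671 and 2.68 in the KMT2D mutant (log2 fold change 1.63, SE 0.56, adjusted p = 0.024), from 3, 1 and 7 counts in the KMT2D mutant. TK1, which salvages thymidine, read 514, 521 and 520.1 in the double mutant, against 356, 453 and 355 in the KMT2D mutant (log2 fold change 0.42, SE 0.15, adjusted p = 0.0302). The lines were separate for these 3 genes as well. RFC3 and RFC4 of the clamp loader went the other way. RFC3, a small subunit, read 10.4, 9.06 and 16.3 in the double mutant, against 36.5, 30.2 and 32.9 in the KMT2D mutant (log2 fold change -1.48, SE 0.38, adjusted p = 0.00592). RFC4 read 62.2, 61.9 and 76.7 in the double mutant, against 95.3, 91.3 and 106 in the KMT2D mutant (log2 fold change -0.54, SE 0.17, adjusted p = 0.0131). SLBP read 156, 123 and 167 in the double mutant, against 209, 184 and 183 in the KMT2D mutant (log2 fold change -0.37, SE 0.14, adjusted p = 0.0475). RFC3, RFC4 and SLBP were lower in every double mutant library than in any of the KMT2D mutant. The loader subunits RFC1, RFC2 and RFC5 were not called. RFC2 read 174.7, 180.5 and 148.2 in the double mutant, above the 130.1, 147.7 and 134.4 of the KMT2D mutant.

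Without KMT2D mutant replicate 3 or double mutant replicate 1 or 2, only 1 member was lower, RFC4 and SLBP having lost their calls. SLBP also lost its call without KMT2D mutant replicate 1 or wild type replicate 1 or 2. TK1 lost its call without any 1 of the 3 double mutant libraries or KMT2D mutant replicates 1 and 3. ORC1 lost its call without double mutant replicate 1 or KMT2D mutant replicate 1 or 3, POLE without KMT2D mutant replicate 1 or 3, and MCM2 without double mutant replicate 2 or KMT2D mutant replicate 1 or 3. POLD2 lost its call without double mutant replicate 1 or 2 or KMT2D mutant replicate 2 or 3, and CLSPN without double mutant replicate 1 or 3 or KMT2D mutant replicate 1 or 2.

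**Figure D3:**
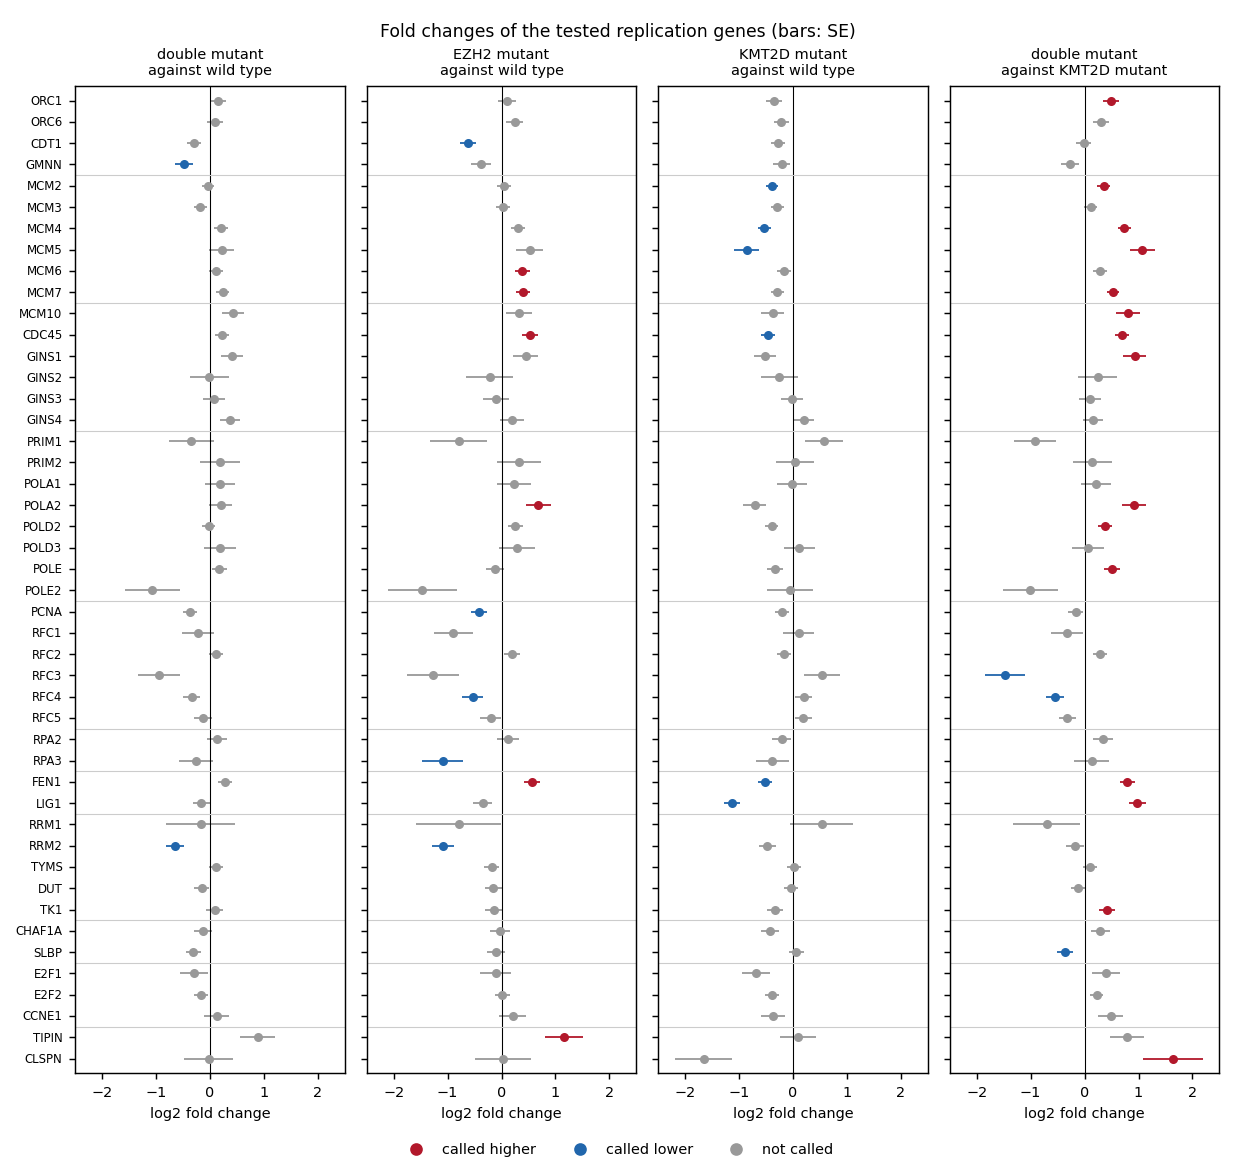
Log2 fold change of each of the 46 tested genes in 4 comparisons, with bars for the SE and colour for a call at an adjusted p of 0.05. Most points lie left of 0 for the KMT2D mutant against wild type (34 of 46) and right of 0 for the double mutant against the KMT2D mutant (33 of 46). These 2 panels share the KMT2D mutant libraries, and 3 panels share wild type.

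Between the double mutant and the EZH2 mutant no member was called. Over all tested genes 0.715% were higher and 1.58% lower in edgeR's quasi-likelihood test. At an unadjusted p under 0.05, 1 member was higher and 1 lower, and DESeq2 and limma-voom called none. The members' signs were 22 positive and 24 negative. CDT1 read 352, 331 and 340 normalised CPM in the double mutant, against 319.6 and 228 in the EZH2 mutant (log2 fold change 0.33, SE 0.15, adjusted p = 0.302). CDC45 read 134, 139.7 and 126 in the double mutant, against 183 and 148 in the EZH2 mutant (log2 fold change -0.31, SE 0.15, adjusted p = 0.324). RRM2 read 70.6, 85.3 and 79.6 in the double mutant, against 61.5 and 55.1 in the EZH2 mutant (log2 fold change 0.44, SE 0.21, adjusted p = 0.329). The test did not separate the 2 lines for these 3 genes. Their libraries did not overlap, but the genes were picked for a small adjusted p. The share of all tested genes with such a gap was not counted. RPA3 read 42, 69.5 and 94.2 in the double mutant, against 26.6 and 46.2 in the EZH2 mutant (log2 fold change 0.83, SE 0.39, adjusted p = 0.341), with an overlap. Without EZH2 mutant replicate 2, 1 member was higher.

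The interaction, the effect of kmt2d-/- with EZH2 Y646N minus its effect without, asks whether the 2 changes add up. Only LIG1 passed the test among the members, on the higher side, and none on the lower. Over all tested genes 1.5% were higher and 1.52% lower. At an unadjusted p under 0.05, 8 members were higher and 0 lower, and DESeq2 and limma-voom called 1 higher each and none lower. In 35 of 46 members the sign was positive. The log2 interaction of LIG1 was 1.32 (SE 0.24, adjusted p = 0.00262 in edgeR's quasi-likelihood test). It combines a log2 fold change of 0.19 for the double mutant against the EZH2 mutant (SE 0.18) with one of -1.13 for the KMT2D mutant against wild type (SE 0.16). For MCM4 the 2 fold changes were -0.10 (SE 0.14) and -0.53 (SE 0.12), and the interaction did not pass (0.43, SE 0.18, adjusted p = 0.253). The next smallest adjusted p belonged to RRM2 (0.91, SE 0.27, adjusted p = 0.0725), CDT1 (0.61, SE 0.20, adjusted p = 0.116) and POLE (0.63, SE 0.22, adjusted p = 0.149), all with a positive sign and without a call. Without replicate 1 of the EZH2 mutant 3 members were higher, and 2 were higher without EZH2 mutant replicate 2, KMT2D mutant replicate 3, double mutant replicate 1 or wild type replicate 1 or 2.

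LIG1 lies on the long arm of chromosome 19. Among the 373 tested genes of that arm, 189 fell and 5 rose in the KMT2D mutant against wild type, with a median log2 fold change of -0.72. For the double mutant the arm's median was 0.82 against the KMT2D mutant, where LIG1 had 0.97, and -0.02 against the EZH2 mutant, where LIG1 had 0.19. It was 0.13 in the double mutant and 0.09 in the EZH2 mutant against wild type, where LIG1 had the other sign, with -0.16 and -0.35, and was not called. The interaction over the arm had a median of 0.71, with 76 genes higher and 3 lower. The part of the arm in the level of LIG1 was not tested. CCNE1, the cyclin that drives entry into S phase, is the other member on that arm and read 19.2, 21.5 and 16.1 normalised CPM in the KMT2D mutant, against 27.7, 24.5 and 20.7 in wild type (log2 fold change -0.37, SE 0.22, adjusted p = 0.381). With all genes of the arm left out, 4 members fell in the KMT2D mutant, and MCM5 then missed the threshold. MCM2, MCM4 and MCM5 are encoded on chromosomes 3, 8 and 22, and CDC45 and FEN1 on 22 and 11.

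In most functions some of the tested members, but not all, had no call in any of the 6 comparisons. ORC6, a subunit of the origin recognition complex, averaged 108 ± 14.5 normalised CPM in the double mutant, 120.5 ± 0.511 in the EZH2 mutant, 87.4 ± 5.94 in the KMT2D mutant and 102 ± 14.5 in wild type (SD, n = 3, 2, 3 and 3). TYMS, which makes thymidylate, averaged 297 ± 25, 242 ± 10.7, 278 ± 19.7 and 275 ± 38.9 in the same order of lines. DUT, which removes dUTP from the pool, averaged 183 ± 3.74, 184 ± 25.4, 198 ± 7.37 and 203 ± 40.2 in that order. Both EZH2 mutant libraries of ORC6 lay above wild type, and TYMS and DUT overlapped wild type in every line. Of the GINS subunits, GINS2, GINS3 and GINS4 were not called either, and GINS2 averaged only 11.8 ± 3.14 in wild type. The catalytic polymerase subunit POLA1 and the primase subunits PRIM1 and PRIM2 averaged 21.1 ± 6.52, 5.1 ± 1.49 and 18.6 ± 9.15 normalised CPM in wild type and had no call, at levels where 1 library rests on few counts. RPA2, the middle subunit of the single-strand binding protein, read 81.9, 112 and 119 in the double mutant, 121 and 88.4 in the EZH2 mutant, 75.2, 104 and 68.9 in the KMT2D mutant and 108, 86.4 and 90.1 in wild type, with all lines overlapping. CHAF1A, which lays histones behind the fork, averaged 137 ± 17.3 in the double mutant, 149 ± 36.4 in the EZH2 mutant, 112 ± 13.7 in the KMT2D mutant and 151 ± 34 in wild type, also without a call.

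The 4 untested genes were near the limit of detection. CDC6, which recruits the MCM ring, had 14 counts over all double mutant libraries, 4 in the EZH2 mutant, 11 in the KMT2D mutant and 18 in wild type. RPA1, the large subunit of the single-strand binding protein, had 4, 3, 6 and 4 counts in that order of lines, CHAF1B had 10, 0, 5 and 10, and CCNE2 had 7, 3, 17 and 13. At the greatest depth 3 counts are 0.965 CPM and at the lowest 2.68 CPM, limits that cover counting error only. Because tags of different genes are read with different efficiency, levels are not compared between genes here. Some counts may be uncertain because pseudogenes named after members exist. PCNA, RPA2 and RRM2 have 3 of these each, TYMS has 2, DUT has 8, and POLD2, RFC3, RFC5 and FEN1 have 1 each. They were found by name, and how alike the sequences are was not measured. FEN1 overlaps FADS2, PRIM1 overlaps NACA and MCM7 overlaps MIR25 on the same strand, and RFC4, RFC5, TYMS, GINS2 and CHAF1A overlap genes on the other strand at their 3′ ends, while the strand used in counting is not given in the sources used here.

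Calls among other genes of the same pathways ran both ways in the KMT2D mutant against wild type. Over all tested genes 3.18% rose and 4.48% fell. Of 13 tested fork enzymes outside the 50 genes, 1 was called in the KMT2D mutant against wild type, and it fell. It was POLD1, the catalytic partner of POLD2, which read 89.2, 104 and 85 normalised CPM in the KMT2D mutant, against 224, 178 and 189 in wild type (log2 fold change -1.09, SE 0.18, adjusted p = 0.000964), and which like LIG1 lies on the long arm of chromosome 19. Of 14 other licensing and firing genes 1 rose and 1 fell: LRWD1, which stabilises the origin complex on chromatin (0.76, SE 0.12, adjusted p = 0.000598), and RECQL4, a helicase of origin firing (-0.66, SE 0.17, adjusted p = 0.018). Of 10 other chromatin genes of the fork 2 were called, both lower: SSRP1, a subunit of the histone chaperone FACT (-0.49, SE 0.12, adjusted p = 0.0159), and the maintenance methyltransferase DNMT1 (-0.45, SE 0.11, adjusted p = 0.0117). The 11 other nucleotide genes had 1 call, the deaminase DCTD, which rose (0.56, SE 0.16, adjusted p = 0.0308). The 8 checkpoint genes had 1 call, the kinase WEE1, which fell (-0.63, SE 0.18, adjusted p = 0.039). Some of these calls were shared with other lines. WEE1 also fell in the double mutant (-0.73, SE 0.19, adjusted p = 0.00782) and the EZH2 mutant (-0.94, SE 0.22, adjusted p = 0.00351). So did DNMT1 (-0.60, SE 0.11, adjusted p = 0.000582, and -0.36, SE 0.12, adjusted p = 0.0305). LRWD1 also rose in the EZH2 mutant (0.46, SE 0.14, adjusted p = 0.0186).

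In the EZH2 mutant against wild type the 11 other nucleotide genes had 6 that rose and 3 that fell, where 17.1% of all tested genes rose and 15.1% fell. Their median log2 fold change was 0.54, beside -0.04 for all genes. DCTPP1, which clears damaged dCTP, read 389 and 431 normalised CPM in the EZH2 mutant, against 217, 203 and 202 in wild type (log2 fold change 0.99, SE 0.13, adjusted p = 2.43e-05). The thymidylate kinase DTYMK (0.66, SE 0.14, adjusted p = 0.00121) and the folate enzyme MTHFD1 (0.66, SE 0.14, adjusted p = 0.00129) rose as well. These 3 were also the genes of this list called in the double mutant, where all 3 rose. Of the 14 licensing genes 3 fell and 1 rose in the EZH2 mutant, among them TOPBP1, which brings firing factors to the origin (-1.15, SE 0.29, adjusted p = 0.00531).

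Regulators of the passage from G1 to S had calls in every mutant line. Of 25 tested RB, E2F and cyclin genes outside the set, 3 rose and 6 fell in the double mutant, 5 rose and 10 fell in the EZH2 mutant, and 5 were called in the KMT2D mutant, all lower, each against wild type. The shares of all tested genes in these 3 comparisons were 12.1% higher and 11.6% lower, 17.1% higher and 15.1% lower, and 3.18% higher and 4.48% lower. CDKN1A, the kinase inhibitor p21 that is a target of p53, read 44.4, 49.1 and 39.5 normalised CPM in the double mutant, 48.1 and 56.6 in the EZH2 mutant, 8.22, 8.05 and 11.1 in the KMT2D mutant and 14.1, 13.9 and 12.7 in wild type. The libraries with EZH2 Y646N were all above the others, and its log2 fold change was 1.70, SE 0.20, adjusted p = 6.98e-06 in the double mutant and 1.96, SE 0.22, adjusted p = 3.97e-06 in the EZH2 mutant against wild type. CDKN2C, an inhibitor of the cyclin D kinases, fell in all 3 mutant lines: -0.83, SE 0.13, adjusted p = 0.000115 in the double mutant, -1.10, SE 0.15, adjusted p = 2.81e-05 in the EZH2 mutant and -0.68, SE 0.12, adjusted p = 0.0016 in the KMT2D mutant. CCND3, a D cyclin of B cells, fell in the double mutant (-0.89, SE 0.11, adjusted p = 1.34e-05) and in the EZH2 mutant (-0.80, SE 0.13, adjusted p = 0.000137), and read 0.07 in the KMT2D mutant (SE 0.11). E2F4, the repressor-type E2F of resting cells, rose in the EZH2 mutant (0.98, SE 0.13, adjusted p = 3.06e-05).

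Genes of the next phases of the cycle were lower in the EZH2 mutant. Of 28 tested genes of G2 and mitosis, 5 were called in the double mutant, 18 in the EZH2 mutant and 2 in the KMT2D mutant against wild type, all of them lower. Of all tested genes 11.6%, 15.1% and 4.48% were lower in these comparisons. Their median log2 fold changes were -0.30, -0.69 and -0.03, beside 0.03, 0.02 and -0.27 for the replication genes. The mitotic kinase CDK1 read 59.2, 54.4 and 90.1 normalised CPM in the double mutant, 45.1 and 54.6 in the EZH2 mutant, 127, 136 and 155 in the KMT2D mutant and 108, 122 and 189 in wild type. Its log2 fold change against wild type was -1.04, SE 0.21, adjusted p = 0.00225 in the double mutant and -1.47, SE 0.26, adjusted p = 0.000522 in the EZH2 mutant. The sum over 30 such genes divided by the sum over the 50 replication genes was 0.519, 0.517 and 0.53 in the double mutant, 0.409 and 0.423 in the EZH2 mutant, 0.66, 0.66 and 0.664 in the KMT2D mutant and 0.573, 0.575 and 0.62 in wild type. The lines did not overlap on this ratio, with the EZH2 mutant lowest and the KMT2D mutant highest. The G2 and mitosis sum itself was not raised in the KMT2D mutant. It was 4001, 4064 and 3996 in the double mutant and 3454 and 3214 in the EZH2 mutant. In the KMT2D mutant it was 4198, 4217 and 4009, below the 4729, 4291 and 4796 of wild type.

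**Figure D4:**
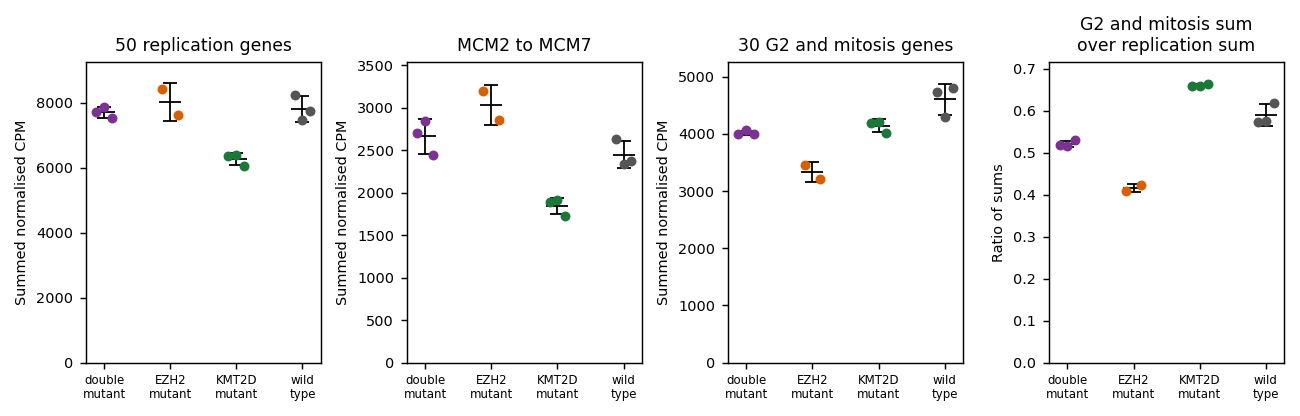
Summed normalised CPM of the 50 replication genes, of MCM2 to MCM7 and of 30 genes of G2 and mitosis, and the ratio of the G2 and mitosis sum to the replication sum, per library with mean and SD. The KMT2D mutant is lowest on the first 2 sums and highest on the ratio (0.66 to 0.664), and the EZH2 mutant is lowest on the ratio (0.409 and 0.423).

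One property of the transcripts ran alongside the fold changes. Across the 46 members, Spearman's rho between the log2 fold change and the GC share of a gene's last 500 bases was -0.42 in the KMT2D mutant against wild type and 0.49 in the double mutant against the KMT2D mutant. Over the 8480 tested genes with a value it was -0.30 and 0.38. In the EZH2 mutant against wild type it was 0.24 for the members and 0.35 for all genes. Genes share the libraries, so these are descriptions across genes, and the part of base composition in the members' values was not tested. With the trends on GC content and abundance removed, 9 members fell in the KMT2D mutant, LIG1 and MCM4 among them, while CDC45 missed the threshold.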

How the data were processed

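The deposited table holds counts per gene, made by the authors from MARS-seq reads. Per the submitters' processing notes, Trim Galore 0.6.0, cutadapt 1.15, FastQC, STAR 2.7.0f and DESeq2 were used, DESeq2 without a stated role. What the correction in the table's name stands for is not given in the sources used here, nor are the counter, strand, annotation and genome build. The table held 28278 genes in 11 libraries, of which 13188 genes were at 0 throughout. Of 12 samples in the series, replicate 3 of the EZH2 mutant has no column and was not analysed here. DM in a column name was read as double mutant.

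Tests on the counts used edgeR 4.0.16 in R 4.3.3. The function filterByExpr with a minimum count of 10 kept 8813 genes. After TMM scaling, all 11 libraries entered a robust quasi-likelihood fit in which each line had its own term. Benjamini-Hochberg adjustment ran over all tested genes in each of 6 comparisons, with a threshold of 0.05, so every adjusted p given comes from this model. Statements that libraries of 2 lines did not overlap are descriptions, as the share of all tested genes that separate so was not counted. Nothing says that the libraries of a line came from separate cultures, so the spread that the p-values rest on is that between these samples and may be technical. No 2 libraries agreed within sampling noise (chi-square per degree of freedom 3.36 to 8.89 between replicates), and the labels give no batch.

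The members and the other gene lists were chosen with earlier results of these data known. Values in every library were to be given for the 4 members with the smallest adjusted p in each comparison, the member with the highest mean CPM of each function and those on the long arm of chromosome 19. From each other list and comparison, up to 3 called genes with the smallest adjusted p could be named. Only some of these are given, and no rule was set for which. For example, KIF20A and NUSAP1 had a smaller adjusted p than CDK1 in the EZH2 mutant, and their values are not given. The other members with values in every library, and CCND3 in the EZH2 and KMT2D mutants, were chosen after their values were seen. Places come from GENCODE 29 on GRCh38, matched by symbol. Motifs were searched in RefSeq promoters with Python 3.11.15.

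The alternatives were scaling by RLE or by upper-quartile factors, no filter, a filter of 30 counts in 3 libraries, DESeq2 1.42.0, limma-voom (limma 3.58.1), only the lines compared, a replicate block, and each library left out. Removal of trends on GC content and abundance, and of the long arm of chromosome 19, was chosen after seeing the data. The model was tested on simulated data.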

Additional observations from a re-analysis of the deposited data

Results flagged for a closer look

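LIG1 differed between the EZH2 backgrounds by a test of the difference itself. Its log2 interaction was 1.32 (SE 0.24, adjusted p = 0.00262 in edgeR's quasi-likelihood test over all tested genes), and the call held under all 19 alternatives that gave a value. With EZH2 Y646N, the double mutant read 209, 202 and 159.8 normalised CPM, against 201 and 138 in the EZH2 mutant. Without it, LIG1 had 94.4, 103 and 93.4 in the KMT2D mutant, against 247, 199 and 194 in wild type. The 373 tested genes on the same chromosome arm had a median interaction of 0.71, and the part of the arm in the value of LIG1 was not tested.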

How the results depend on the processing

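Of 38 member calls, 14 held under every alternative. Among single members, 5166 of 5715 results kept direction and call, 140 lost a call and 112 gained one. Another 296 changed sign without a call on either side. No called member changed sign, and 1 uncalled one was called with the other sign: E2F2 in the EZH2 mutant against wild type read -0.32 with the GC and abundance trends removed, beside 0.02. The cause was not tested for any change named here. In the EZH2 mutant against wild type (6 higher, 5 lower), 2 were higher and 8 lower with upper-quartile factors, 3 higher with DESeq2, 3 higher and 3 lower with only the lines compared, 8 lower with no filter and 3 lower with the replicate block. In the KMT2D mutant (6 lower), 12 were lower with no filter. In the double mutant against wild type (0 higher, 2 lower), 5 were lower with upper-quartile factors, no filter or only the lines compared, and 2 were higher and 9 lower with the trends removed. Against the EZH2 mutant (0 higher), 1 was higher with no filter or with the trends removed. Against the KMT2D mutant (3 lower), 5 were lower with upper-quartile factors or only the lines compared. The interaction (1 higher) had 3 higher with no filter or the trends removed, and 0 without the long arm of chromosome 19, where LIG1 lies and was left out. Leaving out single libraries gave 2 to 6 higher and 2 to 6 lower in the EZH2 mutant, 3 to 10 lower in the KMT2D mutant, 0 to 1 higher and 1 to 4 lower in the double mutant, 0 to 1 higher against the EZH2 mutant, 10 to 16 higher and 1 to 4 lower against the KMT2D mutant, and 1 to 3 higher for the interaction. Whether same-numbered libraries pair stayed unclear. Of 15 such pairs, 5 had a correlation of deviations over 0.1 (range -0.29 to 0.38). Yet 7 of 11 libraries correlated best with their own number, and pairs of unlike numbers ranged from -0.38 to 0.29. The replicate block left 3 lower members in the EZH2 mutant and changed no other count by more than 1.5 times. Depth limits the weakly read genes, 4 of which could not be tested.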
